A study of Arabidopsis thaliana with 12 samples.

Results

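The genes described here are the 5 that encode the early enzymes of gibberellin synthesis in Arabidopsis thaliana: GA1 (AT4G02780_at), GA2 (AT1G79460_at), GA3 (AT5G25900_at), KAO1 (AT1G05160_at) and KAO2 (AT2G32440_at), named here by their probe sets, which carry the locus. They were chosen by locus, as the genes of these steps, and all 5 had a probe set of their own among the 21428 loci tested. The reference annotation lists KAO1 as CYP88A3, with KAO1 among its synonyms, and uses the other 4 names as given here. The study measured RNA of leaf 3, labelled 9DAS, in seedlings of the ecotype Col-0 with the transgene 35S::gai-GR. Leaves of many plants were dissected and pooled, and the 3 replicates of a group are labelled as biological replicates, from independent experiments.

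There were 4 groups of 3 Affymetrix ATH1 arrays each: seedlings moved to medium with 5 µM dexamethasone for 4 h (DEX 4 h), seedlings moved to medium with the solvent DMSO for 4 h (mock 4 h), and the same treatments for 1 h (DEX 1 h and mock 1 h). All groups carry the transgene, including the mock groups, and its viral 35S promoter is active in most tissues. DELLA proteins repress growth, and gai is a DELLA form that gibberellin cannot remove. In the fusion gai-GR, a glucocorticoid receptor domain makes entry into the nucleus depend on dexamethasone. Effects of dexamethasone itself and of gai-GR cannot be told apart, since every group has the transgene. The values are log2 levels made by the authors with RMA. A difference of 1 on that scale is a doubling. Levels of different genes are not compared with each other, because probe sets differ in how strongly they bind. One array, mock 4 h replicate 2, stands apart from its group, with the lowest median of the 12 (7.48, against up to 7.78), and results of the 5 genes that turn on it are also given without it. Fits with each array centred on its median are given only with that array included.

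Gibberellins are diterpene hormones that promote leaf and stem growth by causing the breakdown of DELLA proteins. GA1, a copalyl diphosphate synthase, and GA2, a kaurene synthase, work in plastids and turn geranylgeranyl diphosphate into ent-kaurene. GA3, the kaurene oxidase, a cytochrome P450 and not to be confused with the hormone of the same name, oxidises ent-kaurene to ent-kaurenoic acid. KAO1 and KAO2 are paired P450s that convert ent-kaurenoic acid to the first gibberellin. Soluble 20-oxidases and 3-oxidases then make the bioactive hormone, and the genes of several of these late enzymes are known to be raised when gibberellin signalling is low.

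After 4 h on dexamethasone, 2 of the 5 early genes rose, none fell and 3 did not pass the test. GA3 rose 1.86-fold and GA1 1.44-fold, while GA2, KAO1 and KAO2 had log2 differences of 0.05, -0.04 and 0.26. After 1 h, 0 of the 5 passed. Passing means an adjusted p under 0.05 in limma, fitted to all 12 arrays with a mean for each group and adjusted by Benjamini-Hochberg over all loci. Of all loci, 5.35% rose at 4 h and 7.9% changed in either direction. At 1 h, 0.714% of loci changed. An unadjusted p under 0.05 at 1 h was seen for 0 of the 5 and for 4.98% of all loci, a share at which 0 of 5 is no result about these genes. The median log2 difference of the 5 genes was 0.26 at 4 h and 0.07 at 1 h, against medians over all loci of 0.02 and -0.00 at the same times. At 4 h the DEX and mock arrays did not overlap for 3 of the 5 genes, GA1, GA3 and KAO2, all higher in DEX, as for 13% of all loci. With each array centred on its median, KAO2 overlapped, through mock 4 h replicate 2 alone, and GA1 and GA3 did not. At 1 h they overlapped for all 5, and 13.1% of all loci did not overlap in either direction. In whole leaves, fewer cells of a type and less RNA per cell cannot be told apart.

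**Figure D1:**
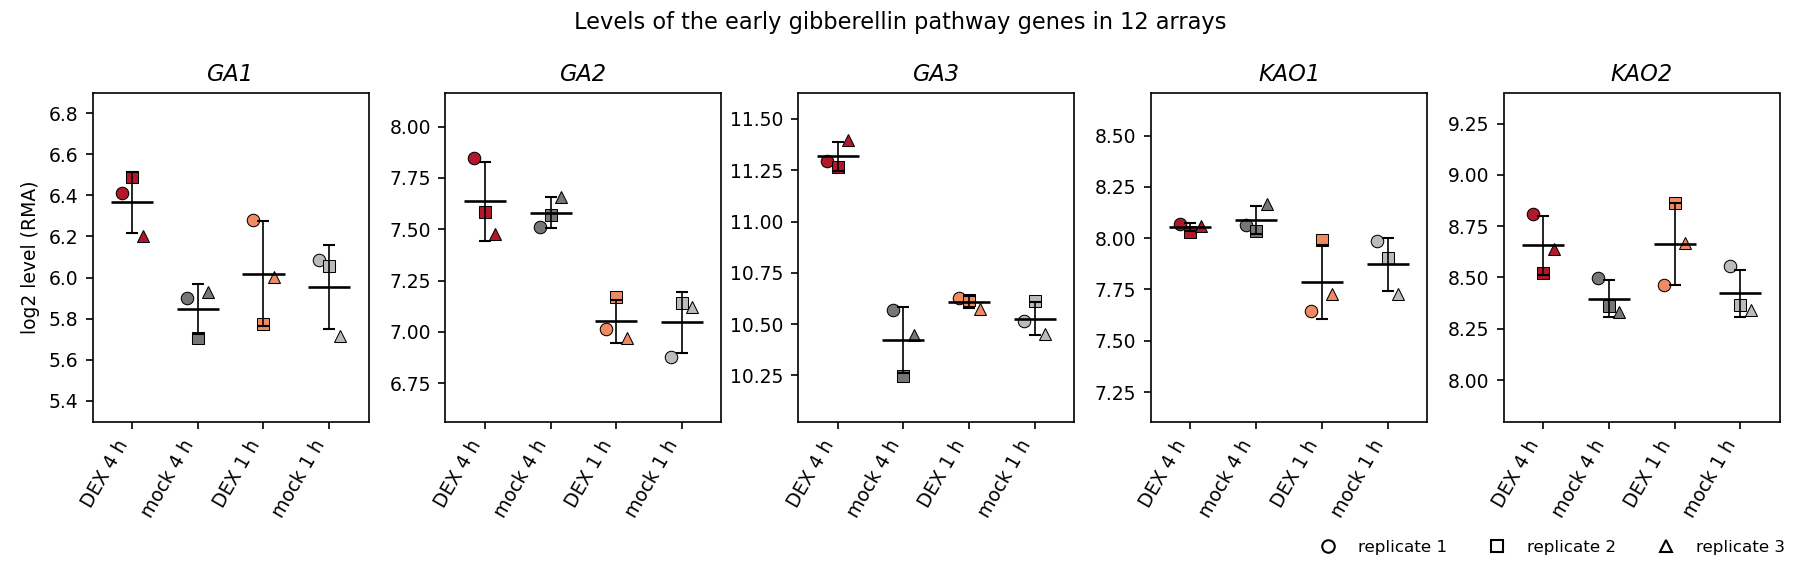
Log2 level (RMA) of the 5 early pathway genes in each of the 12 arrays; each panel spans the same height, points are arrays with the replicate number as the symbol, and lines and bars are the mean and SD of 3 arrays. GA3 and GA1 in DEX 4 h lie above mock 4 h without overlap, and GA2 and KAO1 are higher in the 6 arrays of 4 h than in the 6 of 1 h.

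GA1 forms copalyl diphosphate, the step that commits the precursor to gibberellins. Its log2 level was 6.41, 6.49 and 6.20 in the DEX 4 h arrays, against 5.90, 5.70 and 5.93 in the mock 4 h arrays. All 3 DEX arrays were above all 3 mock arrays. The difference was 0.52 (SE 0.14, 95% interval 0.23 to 0.82, limma adjusted p = 0.031). At 1 h the values were 6.28, 5.77 and 6.0 in DEX and 6.09, 6.06 and 5.72 in mock, and the groups overlapped. The difference at 1 h was 0.07 (SE 0.14, limma adjusted p = 1).

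The rise of GA1 at 4 h was close to the threshold. Without DEX 4 h replicate 2 the adjusted p was 0.128, without DEX 4 h replicate 1 it was 0.0967, without mock 4 h replicate 2 it was 0.0764 and without mock 4 h replicate 1 it was 0.0558. It was 0.0724 when each array was centred on its median, a step that raises mock 4 h replicate 2 most relative to the other arrays. The log2 difference lay between 0.39 and 0.65 in all 24 alternatives. The GA1 probe set is dim and lay between percentiles 20.3 and 35.9 of the loci within an array. Its mock 4 h mean of 5.84 lay at the lower quartile of those arrays (5.84 to 5.85) and is not shown to be above background. With 2 arrays per group, when a replicate number was left out of all groups, the adjusted p was 0.0591 to 0.187.

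GA2 converts copalyl diphosphate to ent-kaurene, and its level did not pass the test under dexamethasone at either time. Its log2 level was 7.85, 7.58 and 7.47 in DEX 4 h and 7.51, 7.57 and 7.66 in mock 4 h. The difference was 0.05 (SE 0.11), with a 95% interval of 0.88-fold to 1.23-fold. At 1 h the values were 7.01, 7.17 and 6.97 in DEX and 6.88, 7.14 and 7.12 in mock. That difference was 0.00 (SE 0.11), and the groups overlapped at both times.

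GA3, which oxidises ent-kaurene, had the largest log2 difference of the 5 genes at 4 h. Its log2 level was 11.29, 11.26 and 11.40 in DEX 4 h, against 10.57, 10.25 and 10.45 in mock 4 h, with a wide gap between the groups. The difference was 0.90 (SE 0.10, 95% interval 0.69 to 1.10, limma adjusted p = 2.56e-05), or 1.86-fold (1.61 to 2.15). It ranked 330 from the top among the 21428 loci. Mock 4 h replicate 2, which stands apart from the other arrays, held the lowest GA3 value. Without that array the difference was 0.81 (adjusted p = 4.04e-05).

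GA3 did not pass the test after 1 h. Its values were 10.63, 10.62 and 10.57 in DEX 1 h and 10.51, 10.61 and 10.45 in mock 1 h, and the difference was 0.08 (SE 0.10, 95% interval -0.13 to 0.29). The response at 4 h exceeded that at 1 h by 0.82 (SE 0.14, limma adjusted p = 0.0074), tested as the difference of the responses. GA3 was the 1 of the 5 genes to pass that test, in which 1.28% of all loci passed and 0.966% did so with the larger value at 4 h. GA1 had a difference of responses of 0.46 (SE 0.20, adjusted p = 0.385), and the other 3 genes had 0.05 or less.

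KAO1 and KAO2 encode enzymes of the same step, from ent-kaurenoic acid to the first gibberellin. KAO2 had log2 levels of 8.81, 8.52 and 8.64 in DEX 4 h, against 8.50, 8.36 and 8.33 in mock 4 h. These groups did not overlap, but the difference of 0.26 (SE 0.12) did not pass, with an unadjusted p of 0.041 and a limma adjusted p of 0.212. With arrays centred, the KAO2 difference at 4 h was 0.15 and the groups overlapped. The overlap came through mock 4 h replicate 2 alone, at 0.89 after centring against a lowest DEX 4 h value of 0.77. The KAO2 difference was 0.17 when the arrays were quantile normalized again, 0.24 without mock 4 h replicate 2 and 0.18 without DEX 4 h replicate 1. At 1 h KAO2 was at 8.46, 8.86 and 8.67 in DEX and at 8.55, 8.37 and 8.34 in mock. The groups overlapped through DEX 1 h replicate 1, and the difference was 0.24 (SE 0.12, limma adjusted p = 1).

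KAO1 did not pass under dexamethasone at either time. It had 8.07, 8.03 and 8.06 in DEX 4 h and 8.07, 8.04 and 8.17 in mock 4 h, a difference of -0.04 (SE 0.10), with a 95% interval of 0.84-fold to 1.14-fold. At 1 h it had 7.65, 7.99 and 7.73 in DEX and 7.99, 7.90 and 7.73 in mock, a difference of -0.08 (SE 0.10). The groups overlapped at both times. With arrays centred, the difference of KAO1 at 4 h was -0.14 (limma adjusted p = 0.424), with all DEX arrays below all mock arrays, and that of GA2 was -0.05. Centring raises mock 4 h replicate 2 most, as its median was 7.48, against 7.74 and 7.76 in the other mock 4 h arrays. Both centred differences lean on that array, and no centred fit without it is given.

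**Figure D2:**
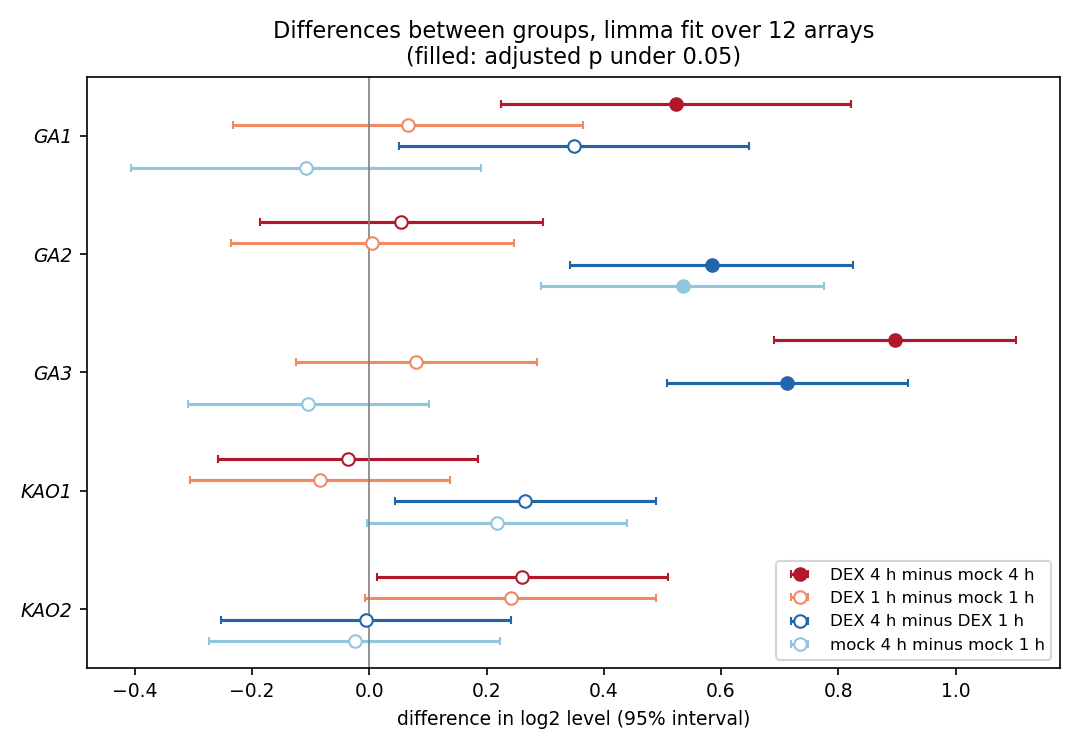
Differences in log2 level with 95% intervals from the limma fit for each early pathway gene (rows), with 4 comparisons in colour; filled points have an adjusted p under 0.05. GA1 and GA3 are filled for DEX 4 h minus mock 4 h, GA2 for both comparisons of 4 h with 1 h, and GA3 for DEX 4 h minus DEX 1 h.

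The responses of KAO2 and KAO1 were also compared with each other inside each array, which removes what an array does to all genes alike. The log2 value of KAO2 minus that of KAO1 was 0.74, 0.49 and 0.58 in DEX 4 h, against 0.43, 0.32 and 0.17 in mock 4 h. At 1 h it was 0.82, 0.87 and 0.94 in DEX and 0.57, 0.47 and 0.61 in mock. The groups did not overlap at either time. The difference between the responses was 0.30 at 4 h and 0.33 at 1 h, each with an exact two-sided permutation p of 0.1, the smallest for 3 arrays against 3, and with 0.143 at 4 h and 0.875 at 1 h after adjustment over 10 pairs. The mean of both times was 0.31, with an exact two-sided permutation p of 0.005 within times, the smallest that 400 assignments allow.

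This was 1 of 10 pairs of the 5 genes compared in that way. The Benjamini-Hochberg adjusted value over the 10 pairs was 0.050, which does not pass, in an exact permutation test with 3 arrays per group. A pair that is alone at the smallest exact p of 0.005 can reach no lower adjusted value. The adjusted test therefore could not have passed this pair alone and decides nothing about it. The pair was singled out after its values were seen. It bears on unequal change of the 2 genes, not on whether either stayed the same. Averaged over times, KAO2 alone was 0.25 higher in DEX (SE 0.08, limma adjusted p = 0.11) and KAO1 differed by -0.06 (SE 0.07), and neither passed. In that average, added after the values were seen, 5.81% of all loci passed. Whether RNA of one KAO gene binds to probes of the other was not tested.

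**Figure D3:**
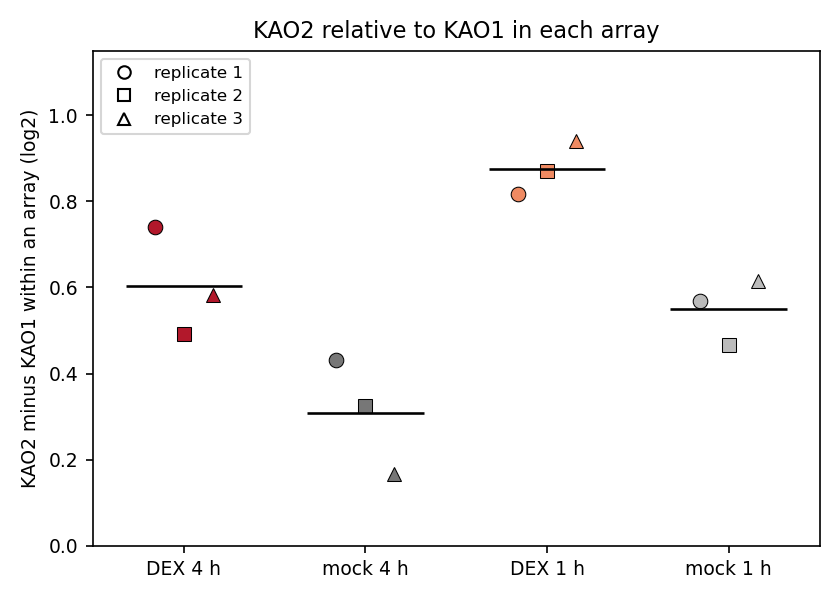
KAO2 minus KAO1 in log2 within each of the 12 arrays; points are arrays, with the replicate number as the symbol, and lines are means of 3. At both times the 3 DEX arrays lie above the 3 mock arrays of the same time.

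Of the 10 pairs, 7 had DEX and mock arrays without overlap at 4 h and 1 was without overlap at 1 h, that of KAO2 and KAO1. At 4 h these were the 4 pairs with GA3, the pair of KAO2 and KAO1, and GA1 with GA2 and with KAO1. The response of GA3 minus that of GA1 was 0.37, GA2 minus GA1 was -0.47 and KAO1 minus GA1 was -0.56. Each of the 7 had an exact permutation p of 0.1, the smallest that 3 arrays against 3 allow, and 0.143 adjusted over the 10 pairs. No pair could pass at 4 h alone, whatever its values. The pairs share genes, and no share over pairs of other loci is given. The count of 7 is therefore not read as a result beyond those of the single genes.

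The arrays of 4 h were next set against those of 1 h within a treatment. GA2 was higher at 4 h than at 1 h under both treatments. It differed by 0.58 in DEX (SE 0.11, limma adjusted p = 0.0024) and by 0.53 in mock (SE 0.11, limma adjusted p = 0.0095). The 6 arrays of 4 h had 7.47 to 7.85 and the 6 of 1 h had 6.88 to 7.17, so they did not overlap, as was the case upward for 4.43% of all loci. Between DEX 4 h and DEX 1 h, 2 of the 5 genes rose, GA2 and GA3, where 10.4% of all loci rose and 19.4% changed, and GA2, GA3 and KAO1 were higher without overlap, as were 19% of all loci. Between mock 4 h and mock 1 h, 1 of the 5 rose, GA2, where 3.64% of all loci rose and 9.29% changed, and GA2 and KAO1 were higher without overlap, as were 9.78% of all loci.

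The change of GA2 in mock leaves rested in part on 1 array. Without mock 1 h replicate 1, which had the lowest GA2 value of all, the adjusted p was 0.0528, at a difference of 0.45. The mean of the DEX and mock differences between times, a comparison added after the values were seen, was 0.56 (SE 0.08, limma adjusted p = 0.00018), and it passed in all 23 alternatives. The hour of harvest is not given in the sources used here, so time on the plates and time of day cannot be told apart.

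KAO1 was higher at 4 h than at 1 h by 0.27 in DEX (SE 0.10, limma adjusted p = 0.0872) and by 0.22 in mock (SE 0.10, limma adjusted p = 0.213), and neither passed alone. The 6 arrays of 4 h, at 8.03 to 8.17, were all above the 6 of 1 h, at 7.65 to 7.99. Averaged over treatments, in the same added comparison, KAO1 rose by 0.24 (SE 0.07, limma adjusted p = 0.025). There 3 of the 5 genes rose, GA2, GA3 and KAO1, where 12% of all loci rose and 27.1% changed. The adjusted p of KAO1 was 0.0725 without mock 1 h replicate 3, 0.0701 without DEX 1 h replicate 1, 0.0572 without DEX 1 h replicate 3 and 0.0513 without mock 4 h replicate 3. It was 0.0563 with arrays centred, 0.145 without replicate 1 of every group and 0.27 without replicate 3 of every group, and KAO1 passed in 15 of 23 alternatives. KAO2 differed by -0.01 in DEX and -0.03 in mock (SE 0.12 each), and GA1 by 0.35 in DEX (SE 0.14, limma adjusted p = 0.0949) and by -0.11 in mock. GA3 differed by 0.71 in DEX (SE 0.10, limma adjusted p = 0.00018) and by -0.10 in mock (SE 0.10).

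The genes of the steps before and after the early pathway were read from lists of known members. Among the late enzymes, 5 of 9 genes rose at 4 h and 4 of 9 at 1 h, and none fell at either time. Over all loci 5.35% rose at 4 h and 0.714% changed at 1 h. The 20-oxidase genes GA20OX2 and GA20OX1 had log2 differences of 5.34 and 4.14 at 4 h and of 4.37 and 3.89 at 1 h. GA20OX3, also a 20-oxidase gene, had at least 4.78 at 4 h and at least 1.83 at 1 h. Its mock means of 5.61 at 4 h and 5.62 at 1 h lay under the lower quartile of every array and are not shown to be above background. The 3-oxidase gene GA3OX1 had 4.13 at 4 h and 3.17 at 1 h, and GA3OX2, named after its value was seen because it completes the 5, had 0.74 (SE 0.15) at 4 h and 0.11 at 1 h. GA3OX2 averaged 6.66 in DEX 4 h and 5.92 in mock 4 h, and 6.57 in DEX 1 h and 6.46 in mock 1 h. Its mock 4 h mean lay at percentile 26.4 of the loci and is not shown to be above background. In mock leaves it fell by 0.53 at 4 h against 1 h (SE 0.15, limma adjusted p = 0.0398) and differed by 0.10 between DEX 4 h and DEX 1 h. The median log2 difference of the 9 late genes was 0.74 at 4 h and 0.11 at 1 h, which are the values of GA3OX2 itself. The 4 late genes that did not pass at 4 h averaged at percentile 28.3 or below in every group and are not shown to be above background. GA3, GA1 and GA3OX2 passed at 4 h and not at 1 h, whereas the other 4 late genes that passed did so at both times. For GA1 and GA3OX2 the difference between times did not pass the test itself (limma adjusted p = 0.385 and 0.222).

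Genes that supply the precursor of GA1 passed at neither time. Of 10 genes of plastid isoprenoid supply and geranylgeranyl diphosphate synthesis, 0 passed under dexamethasone at 4 h or at 1 h by limma, and 0 had an unadjusted p under 0.05 at either time. Over all loci 7.9% passed at 4 h and 0.714% at 1 h, shares at which 0 of 10 is no result about these genes. The log2 differences of the 10 genes at 4 h ran from -0.15 to 0.24, with a median of -0.01. DXS and DXR, the first enzymes of the plastid pathway, had -0.15 and -0.14 at 4 h (SE 0.10 and 0.09). Of the genes of 2 enzymes that draw on geranylgeranyl diphosphate for other products, PSY, of carotenoid synthesis, differed by -0.06 and the geranylgeranyl reductase gene GGR by -0.11 at 4 h. The P450 reductase genes ATR2 and ATR1, whose products pass electrons to P450s such as GA3, differed by 0.34 (SE 0.15, limma adjusted p = 0.207) and 0.07 at 4 h, and neither passed. Mock 4 h replicate 2 held the lowest ATR2 value of its group, 8.10 against 8.64 and 8.47, and no fit of ATR2 without it is given.

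Inactivation and reception were the last steps examined. Of 9 genes of gibberellin inactivation, 1 fell at 4 h and 0 rose: GA2OX2, a 2-oxidase, was at 6.37 ± 0.13 in DEX 4 h against 7.06 ± 0.15 in mock 4 h (SD, n = 3 each), with a limma adjusted p of 0.0013. At 1 h 0 of the 9 passed by limma, and 2 had an unadjusted p under 0.05, as had 4.98% of all loci. Over all loci 7.9% changed at 4 h and 0.714% at 1 h. At those shares, 1 of 9 at 4 h and 0 of 9 at 1 h are no result about the list. Several of the 9 averaged at percentile 24.5 of the loci or below in both 4 h groups. Those are not shown to be above background, so a fall of them could be missed. All 3 receptor genes rose at 4 h, GID1B by 2.66, GID1A by 1.04 and GID1C by 0.44 on the log2 scale. The share that rose over all loci was 5.35%. At 1 h GID1B rose by 1.52, and GID1A (0.49, limma adjusted p = 0.0777) and GID1C (0.07) did not pass.

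**Figure D4:**
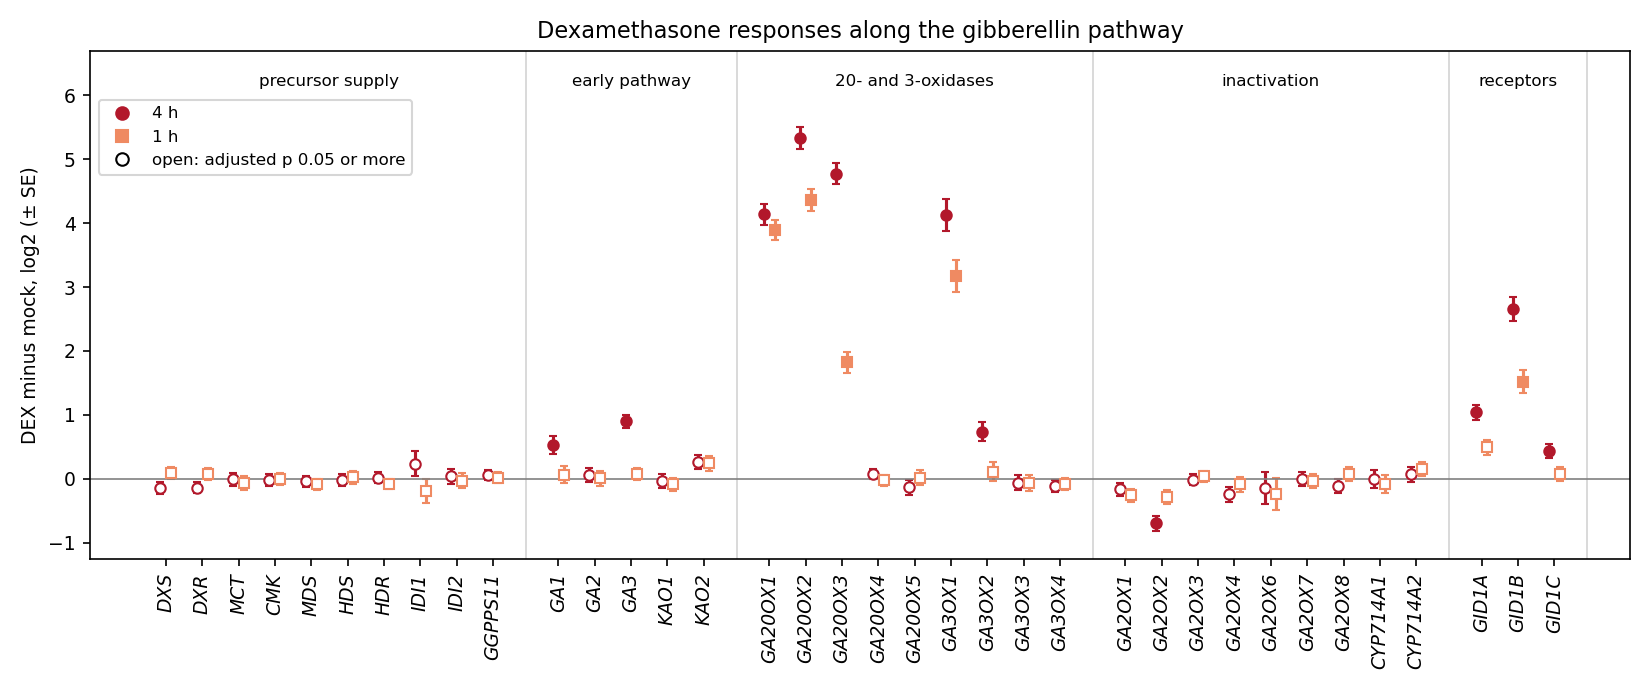
Difference in log2 level between DEX and mock (± SE, limma) for each measured gene of 5 steps of the gibberellin pathway, at 4 h (circles) and at 1 h (squares); open symbols have an adjusted p of 0.05 or more. GA3 and GA1 are filled at 4 h alone and lie above the precursor supply genes and below GA20OX2, which reaches 5.34.

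The genes whose values over the 12 arrays were most like those of GA3 and GA1 were found by the root mean square difference between values centred on each gene's own mean. That choice used the same 12 arrays as the tests. Responses like those of GA3 and GA1 therefore follow from the choice and are no separate evidence. Nearest to GA3 were AT1G76360 at 0.094, GAMMA-VPE (AT4G32940), a vacuolar processing protease gene, at 0.098 and NRAMP4 (AT5G67330), a vacuolar metal transporter gene, at 0.108. They had log2 differences of 1.01, 0.92 and 0.90 at 4 h and of 0.10, 0.11 and 0.02 at 1 h. Nearest to GA1 were the cytokinin response regulator gene ARR4 (AT1G10470) at 0.119, the prolyl 4-hydroxylase gene P4H5 (AT2G17720) at 0.122 and the actin depolymerizing factor gene ADF5 (AT2G16700) at 0.129. ARR4 had 0.50 at 4 h (limma adjusted p = 0.0115). P4H5 and ADF5 had 0.31 and 0.34 and did not pass.

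The label of a leaf was read against tissue markers. The 5 measured leaf markers lay at percentile 95.3 of the loci or above in every group. Of 9 shoot meristem and organ boundary markers, 2 fell at 4 h, KNAT1 (5.91 ± 0.28 in DEX 4 h, against 7.24 ± 0.22 in mock 4 h, SD, n = 3 each) and CUC3, and CUC3 also fell at 1 h. Over all loci 7.9% changed at 4 h and 0.714% at 1 h. KNAT1 was at 6.53 in DEX 1 h and 6.52 in mock 1 h, so its level in mock leaves was also higher at 4 h than at 1 h. CUC3 averaged 5.36 in DEX 4 h and 5.83 in mock 4 h, at percentiles 11.2 and 24.6 of the loci. The mean log2 level of the 9 markers was 5.76 to 5.96 in DEX 4 h arrays and 6.17 to 6.21 in mock 4 h arrays. Their log2 differences at 4 h ran from -1.33 to 0.27, with a median of -0.29, against 0.02 over all loci. An unadjusted limma p under 0.05 at 4 h was seen for 5 of the 9, in either direction, and the share of all loci for that is not given here. RMA gives no level of 0; the stem cell markers WUS and CLV3 were at 5.27 and 6.11 in DEX 4 h and at 5.34 and 5.84 in mock 4 h. Of 5 vascular and 5 root markers 0 passed by limma at 4 h, and 0 had an unadjusted p under 0.05. With 7.9% of all loci passing, 0 of 5 is no result about either list. The vascular list's mean level was 6.63 to 6.83 in DEX 4 h and 6.75 to 6.77 in mock 4 h, and the root list's was 5.96 to 6.04 in DEX 4 h and 5.94 to 6.05 in mock 4 h. The part of the meristem markers in the rise of GA3 and GA1 was not tested.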

How the data were processed

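The deposited table holds log2 expression values per probe set, made by the authors with RMA, per the submitters' processing notes. RMA gives each probe set a single log2 value; the deposited arrays did not share 1 distribution. Its version and probe set definition are not given in the sources used here. Of 21492 probe sets, 64 controls were left out and 21428 loci were tested without a filter. The 5 genes share no profile with another locus (0 of 5), no 2 arrays are identical (0 pairs), and 0 columns belong to other series. Names come from the TAIR10.1 annotation, which is not used for coordinates. No sequence is printed.

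Comparisons used lmFit and eBayes of limma 3.58.1 (R 4.3.3), two-sided, on 8 residual plus 5.85 prior degrees of freedom, with Benjamini-Hochberg adjustment over all loci. Array medians ran from 7.48 to 7.78; mock 4 h replicate 2 was lowest and correlated across genes at 0.987 and 0.988 with its group, against 0.995 for the other pair. No read depth exists for arrays, and 3 per group limit the precision. GAI, the gene behind the transgene, differed by 0.00 at 4 h and -0.01 at 1 h. Alternatives were a replicate block, arrays of 1 comparison, mean log2 of at least 5 or 6, quantile normalization, centring, a variance trend, array weights, an adjusted p of 0.01 and leaving out arrays; comparisons averaged over times or treatments, and the pairs, were added after the data were seen. On simulated data for the 4 h comparison, with 21428 genes, the fit called 24 of 67 genes shifted by log2 0.5. It called 62 of 67 shifted by 1 and 66 of 66 shifted by 2. The simulation gave 154 calls in all, against 1693 in the data, so its cutoff on the unadjusted p was stricter. These shares therefore do not say how often changes of the size of GA1's are missed in the data. The genes, lists and the rule for named genes (all 5; up to 4 per list with the smallest p at 4 h; 3 like genes for each called at 4 h) were chosen with earlier results of these data known. Figures were drawn with matplotlib 3.10.9.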

Additional observations from a re-analysis of the deposited data

Results flagged for a closer look

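GA3 responded differently to dexamethasone at the 2 times by a test of the difference itself. The response at 4 h minus the response at 1 h was 0.82 on the log2 scale (SE 0.14, limma adjusted p = 0.0074), with 0.90 at 4 h and 0.08 at 1 h. All 3 DEX 4 h arrays were above all 3 mock 4 h arrays. Without mock 4 h replicate 2 the value was 0.73 (limma adjusted p = 0.0059). With 2 arrays per group the values were 0.72 to 0.92 and did not pass (limma adjusted p of 0.0832 to 0.139).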

How the results depend on the processing

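Of the 5 early genes, the number that passed for DEX against mock at 4 h was 2, and 1 (GA3) when arrays were centred on the median, 1 with array weights and 1 at an adjusted p under 0.01. When arrays or replicate numbers were left out, the number ran from 1 to 2 at 4 h, from 0 to 0 at 1 h, from 0 to 1 for the response at 4 h minus that at 1 h, from 0 to 1 for mock 4 h against mock 1 h, and from 1 to 3 for DEX 4 h against DEX 1 h. GA3 passed at 4 h in 24 of 24 alternatives, with log2 differences of 0.79 to 0.98, and GA1 in 14 of 24. Centring moved the median of all loci at 4 h to -0.09, against 0.02 without it. GA3 was then 0.79 and GA1 0.41. The array that centring shifts most is mock 4 h replicate 2, and no centred fit without it is given. The KAO2 minus KAO1 response ran from 0.28 to 0.34 without single arrays (exact permutation p of up to 0.01) and from 0.28 to 0.33 without a replicate number (exact p = 0.0556, the smallest possible there).

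Replicate numbers were not taken to pair the arrays, as not every array correlated best with its own number. Deviations of same-numbered DEX and mock arrays correlated at -0.01, 0.19 and 0.10 at 4 h and 0.04, 0.06 and 0.19 at 1 h. Those of different-numbered arrays ran from -0.17 to 0.13 at 4 h and from -0.13 to 0.07 at 1 h, so they tended to be lower. Whether a replicate number marks 1 experiment is not given in the sources used here. With the replicate block the numbers passing were 2 at 4 h, 0 at 1 h, 1 for the difference of responses, 1 for mock and 2 for DEX between times, and GA1 had an adjusted p of 0.0275. The count of all loci passing ran from 871 to 2169 at 4 h (1693 in the fit reported), from 51 to 378 at 1 h (153), from 40 to 465 for the difference of responses (274), from 371 to 3120 for mock between times (1990) and from 1468 to 5760 for DEX between times (4160). The test of the difference of responses uses all 4 groups and has no version with fewer.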
